A study of Rattus norvegicus with 6 samples.

Results

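Tetrahydrobiopterin (BH4) is the cofactor that tyrosine hydroxylase, tryptophan hydroxylase and the nitric oxide synthases need, so its supply is tied to the making of dopamine, noradrenaline, serotonin and nitric oxide. The genes described here are the 5 genes of its synthesis and recycling, Gch1, Gchfr, Pts, Spr and Qdpr, out of 15168 genes that had a probe on the array. They were chosen by the transcript accession of the probe, and every probe was kept, which gave 6 probes in all. Each of the 5 genes had 1 probe except Spr, which had 2.

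Brain RNA came from 6 male rats of Wistar background aged 15 weeks, all sedentary. Of these, 3 were of the SPORTS line, a mutant line known for spontaneous high wheel running, and 3 were wild type. Each rat had 1 single-colour Agilent array, and neither the brain region nor the mutated gene is given in the labels. The comparison of SPORTS with wild type asks how transcript levels in the resting brain differ between the lines.

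In the pathway, GTP cyclohydrolase (Gch1) opens the ring of GTP in the rate-limiting step. Its regulatory protein (Gchfr) binds the enzyme and couples its activity to the levels of tetrahydrobiopterin and phenylalanine. The product is then converted by 6-pyruvoyltetrahydropterin synthase (Pts) and by sepiapterin reductase (Spr). After each hydroxylation the cofactor is oxidised, and dihydropteridine reductase (Qdpr) returns it to its active form. In brain, Gch1 is known to be high in monoamine neurons, while the reductases are found much more widely.

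Of the 5 genes, Gchfr and Pts were higher in SPORTS, by 1.54-fold and 1.16-fold. Gch1 had the largest measured difference, 1.66-fold higher, but it was the dimmest and most variable probe and did not pass the test. Spr and Qdpr did not pass either, at fold values of 0.951 and 1.04. All 6 probes were well above background on all 6 arrays and entered the test. Over all arrays, 2 of the 6 probes were called higher and 0 lower in limma's moderated test, at an adjusted p under 0.05, against 11.0% of all 20659 tested probes called higher and 21.1% called in either direction. Of the 5 genes 2 were called higher and 0 lower, against 12.9% and 11.4% of 11033 tested genes, or 24.3% in either direction. At an unadjusted p under 0.05, 3 of the 5 genes were higher and 0 lower, against 20.6% and 18.7% of all tested genes. With only 5 genes these counts set the group apart from other genes in no testable way. The median difference of the 5 genes was 0.22 on the log2 scale, beside 0.01 over all tested genes.

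Promoter sequence is shown for the 3 genes on which the results turn, the enzyme of the first step, its regulator and the next enzyme. Each line gives the 250 bases before the RefSeq start of the gene in build GRCr8, 5′ to 3′ on the gene's strand, with motif matches in capitals. Gchfr lies on the plus strand (chr3:126611642-126611891), Gch1 on the minus strand (chr15:22917413-22917662) and Pts on the minus strand (chr8:59774266-59774515).
Gch1: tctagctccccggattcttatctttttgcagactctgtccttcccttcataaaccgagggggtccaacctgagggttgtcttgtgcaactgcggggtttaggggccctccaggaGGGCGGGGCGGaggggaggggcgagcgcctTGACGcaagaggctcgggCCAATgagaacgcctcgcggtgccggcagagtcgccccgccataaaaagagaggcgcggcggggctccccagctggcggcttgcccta
Gchfr: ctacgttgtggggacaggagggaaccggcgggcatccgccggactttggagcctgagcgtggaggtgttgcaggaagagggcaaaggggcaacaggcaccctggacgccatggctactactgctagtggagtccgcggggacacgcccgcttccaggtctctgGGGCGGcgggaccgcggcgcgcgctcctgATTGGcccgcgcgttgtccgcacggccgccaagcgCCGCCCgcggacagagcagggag
Pts: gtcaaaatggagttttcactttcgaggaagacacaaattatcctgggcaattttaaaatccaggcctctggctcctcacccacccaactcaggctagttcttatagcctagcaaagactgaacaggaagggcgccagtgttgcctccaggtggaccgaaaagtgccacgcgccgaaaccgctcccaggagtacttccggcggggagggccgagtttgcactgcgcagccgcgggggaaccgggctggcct
The motifs searched on both strands were the CCAAT box (CCAAT), the GC box (GGGCGG), the TATA box (TATAAA), the core of the cAMP response element (TGACG) and the E-box (CACGTG). These letters occur in 34%, 30.5%, 12.9%, 18.2% and 5.59% of the 33469 rat promoter windows of the same length. The Gch1 window holds 1 CCAAT match, 1 TGACG match and 2 GC box matches that overlap each other. The Gchfr window holds 1 CCAAT match, read on the opposite strand, and 2 GC box matches. The Pts window holds none of these letters, so the 2 genes called higher do not share a motif of this set. The windows of Spr and Qdpr hold 2 and 1 CCAAT matches and 2 and 4 GC box matches. GC content was 64.4% for Gch1, 70.4% for Gchfr and 57.2% for Pts. These matches describe the letters and are not measured binding.

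Levels are on a log2 scale that sets the 75th percentile of each array to 0, and a difference is the SPORTS mean minus the wild type mean, with the SE of the fit. Arrays are named by line and replicate number, which only names the rat. That percentile lay between 1530 and 1628, and 20325 to 23261 of 30367 probes per array exceeded background. None of the members' spots was saturated or marked as an outlier. Across tested probes the arrays correlated at 0.995 to 0.997 within a line and 0.987 to 0.991 between lines. Wild type replicates 1 and 2 lay in row 1 of the slide and the other 4 arrays in row 2, so the comparison within row 2 rests on 1 wild type array. The neuron markers Snap25, Syt1, Map2 and Tubb3 were well above background on all arrays. In whole tissue, fewer cells of a type and less RNA per cell cannot be told apart.

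For Gch1, probe A_64_P138216 read -5.57, -4.95 and -4.92 in wild type replicates 1 to 3 and -4.61, -4.51 and -4.12 in SPORTS replicates 1 to 3. All 3 SPORTS arrays were above all wild type arrays, with the smallest gap between wild type replicate 3 and SPORTS replicate 1. The group means were -5.15 ± 0.37 (SD, n = 3) and -4.42 ± 0.26 (SD, n = 3). The difference was 0.73 ± 0.22 (SE), with a 95% interval of 0.20 to 1.26, and it did not pass in limma's test (adjusted p = 0.065). On the linear scale the spots read between 33.3 in wild type replicate 1 and 87.7 in SPORTS replicate 3, at the faint end of the array. The lowest level of any probe well above background was between -6.72 and -5.79 on the 6 arrays. The 2 spots of the Gch1 probe on an array differed by a median of 0.30 on the log2 scale and by up to 0.51, where the medians were 0.16 for Gchfr and 0.04 for Pts. Wild type replicate 1 was the lowest array. Without it the difference was 0.52 (adjusted p = 0.0941). Quantile normalisation and a trended, robust variance model each moved Gch1 past the threshold (adjusted p = 0.0274 and 0.0342), settings that called 25.1% and 28.8% of all genes. With slide row as a blocking term, where 8.34% of genes were called, it was 0.50 (adjusted p = 0.374). Over all 16 alternatives the difference ran from 0.41, with normexp background correction, to 0.84, and its adjusted p from 0.0274 to 0.374.

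For Gchfr, which encodes the regulator of that enzyme, probe A_42_P527070 read -1.94, -1.81 and -1.73 in wild type and -1.23, -1.14 and -1.25 in SPORTS. The lines did not overlap, and the gap between them was larger than the range within either. The means were -1.83 ± 0.10 (SD, n = 3) and -1.20 ± 0.06 (SD, n = 3). Gchfr rose by 0.62 ± 0.06 (SE), with a 95% interval of 0.46 to 0.78 (limma adjusted p = 0.00254). A rise this large was exceeded by 307 of the 1423 genes called higher. Gchfr was the 1 member whose call held in all 16 alternatives, with a difference between 0.53 and 0.67 and an adjusted p between 0.000156 and 0.0394. The lowest difference was the one blocked on slide row.

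The ratio of the regulator to the enzyme was followed on each array, since the protein products act as a complex. The log2 ratio of the Gchfr probe over the Gch1 probe was 3.63, 3.14 and 3.19 in wild type and 3.39, 3.37 and 2.88 in SPORTS. The lines overlapped in part, with wild type replicate 1 above all SPORTS arrays and SPORTS replicate 3 below all wild type arrays. The ratio differed by -0.11 between the lines (two-sided exact permutation p = 0.6), where 3 arrays against 3 cannot give less than 0.1. Its sign turned in the alternatives that left out wild type replicate 1 or SPORTS replicate 3, to 0.05 and 0.06, with normexp, to 0.15, and within row 2, to 0.025. A test of this size cannot pass 0.05, so the values describe the pair without deciding whether it changed unequally.

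For Pts, probe A_43_P11865 read -1.89, -1.94 and -1.93 in wild type and -1.70, -1.72 and -1.68 in SPORTS. Both lines were tight and did not overlap. The means were -1.92 ± 0.03 (SD, n = 3) and -1.70 ± 0.02 (SD, n = 3). Pts rose by 0.22 ± 0.03 (SE), with a 95% interval of 0.14 to 0.31 (limma adjusted p = 0.00933). The size is small, and 26.5% of all tested genes differed by at least as much. The 2 spots of the probe differed by a median of 0.04 on an array. With the row as a block the difference was 0.23 and no longer passed (adjusted p = 0.0673), nor did it within row 2 (adjusted p = 0.0904). In the other 14 alternatives the call of Pts was kept.

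**Figure D1:**
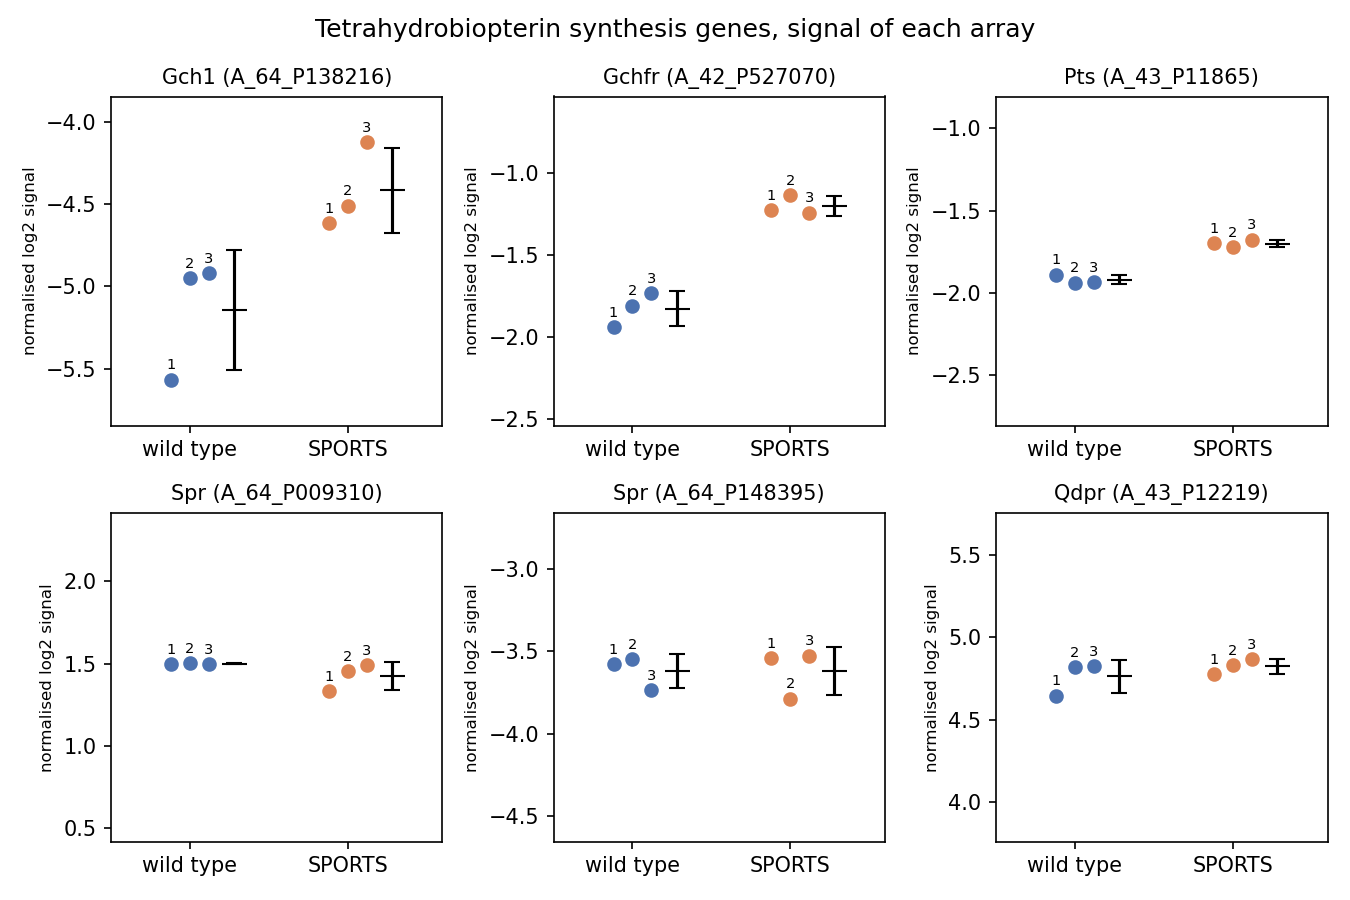
Normalised log2 signal (vertical axis, the same span of 2 log2 units in every panel) of the 6 probes on each array, with wild type in blue, SPORTS in orange and the replicate number above each point. The bar beside each group is the mean ± SD of 3 arrays. Gch1, Gchfr and Pts are higher on all 3 SPORTS arrays than on any wild type array, and the widest spread is that of Gch1.

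Spr, whose product completes the cofactor, was read by a pair of probes with the same transcript accession. The brighter, A_64_P009310, has 1 spot and read 1.50, 1.50 and 1.50 in wild type and 1.33, 1.45 and 1.49 in SPORTS. All 3 SPORTS arrays were below all wild type arrays, but only SPORTS replicate 1 by a wide margin. The difference was -0.07 ± 0.05 (SE), with a 95% interval of -0.20 to 0.05 (limma adjusted p = 0.356). It was -0.03 without SPORTS replicate 1 and -0.02 with normexp. The other probe, A_64_P148395, read -3.58, -3.55 and -3.74 in wild type and -3.54, -3.79 and -3.53 in SPORTS, and the lines overlapped. Its difference was 0.00 ± 0.09, with an interval of -0.22 to 0.22 (limma adjusted p = 0.996). Neither probe was called in any of the 16 alternatives. By the bounds of these intervals a change of Spr beyond 0.22 on the log2 scale in either direction lies outside both.

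Qdpr, the recycling enzyme, was read by probe A_43_P12219 at 4.65, 4.82 and 4.82 in wild type and 4.78, 4.83 and 4.87 in SPORTS. Wild type replicate 1 was the lowest array and the lines overlapped. The difference was 0.06 ± 0.06 (SE), with a 95% interval of -0.09 to 0.21 (limma adjusted p = 0.53). Without wild type replicate 1 it was 0.003. No alternative called Qdpr, and its adjusted p ran from 0.409 to 0.998.

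Among the brightest probes of the 5 genes, the lines did not overlap for 4, namely Gch1, Gchfr, Pts and Spr. Over all tested genes the lines did not overlap for 47.0%, so separation by itself was common in this comparison.

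**Figure D2:**
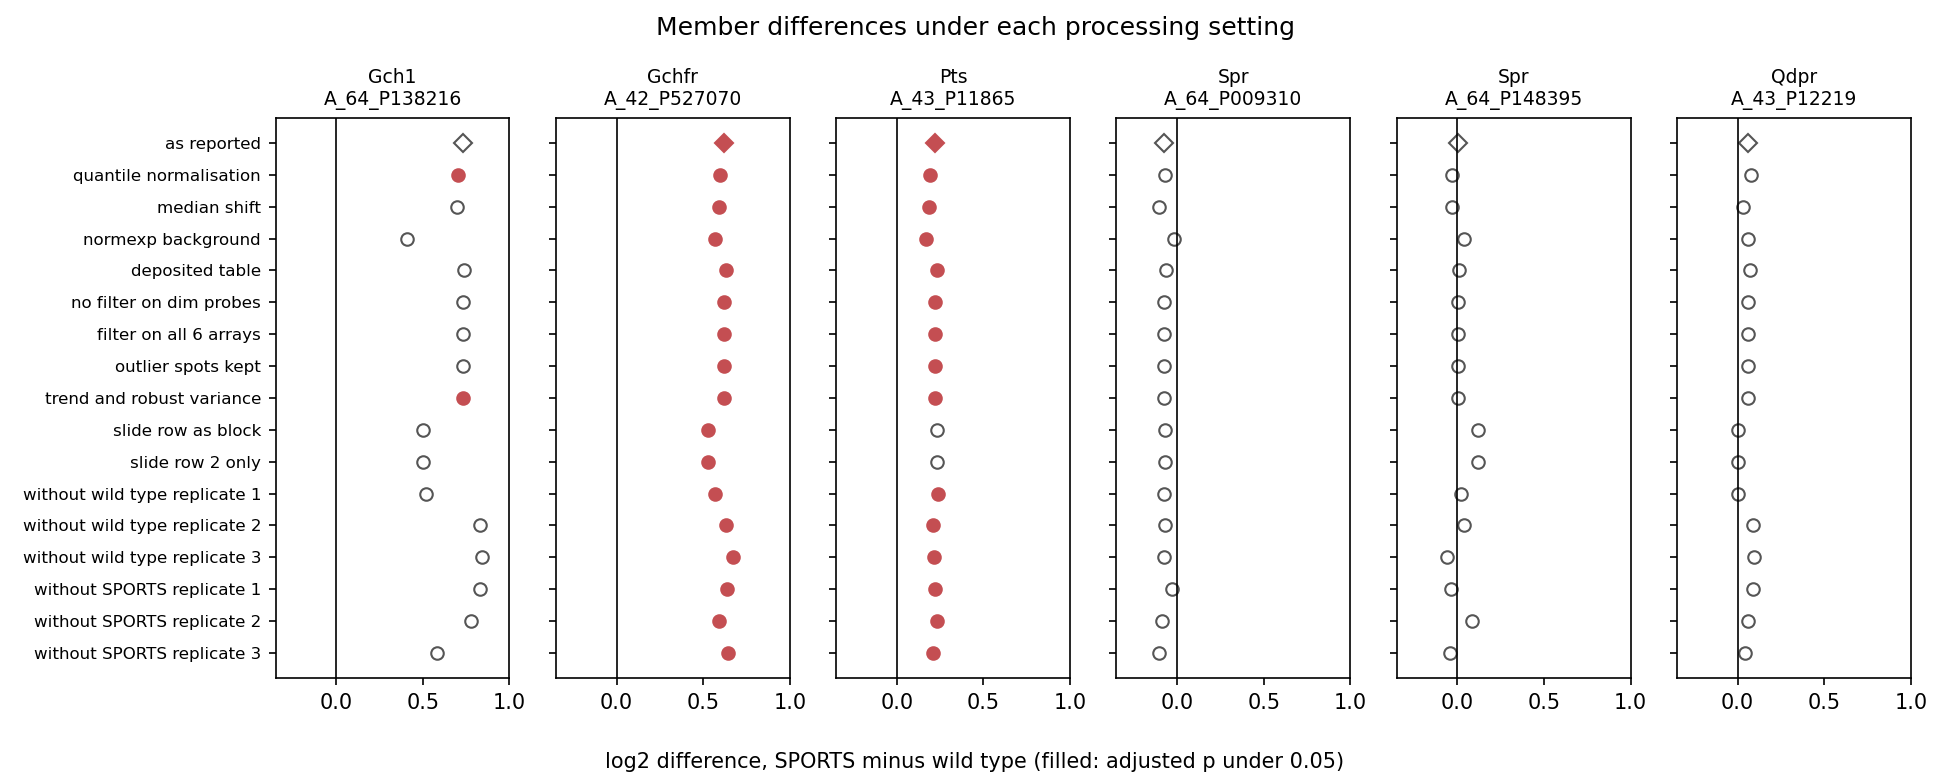
Log2 difference, SPORTS minus wild type (horizontal axis), of each of the 6 probes under each processing setting (rows), with a diamond for the value as reported and filled symbols where the limma adjusted p was under 0.05. Gchfr is filled in every row, Pts in all but the 2 rows that use the row of the slide, and Gch1 in 2 rows.

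The enzymes that use the cofactor come next. Of 8 listed genes 6 were tested, of which 2 rose, 0 fell and 4 did not pass, with a median difference of 0.34; among all tested genes 12.9% rose and 11.4% fell. At an unadjusted p under 0.05, 3 were higher and 0 lower, where all genes gave 20.6% and 18.7%. Tph2, the rate-limiting enzyme of serotonin synthesis in brain, read -4.80, -4.66 and -4.96 in wild type and -3.81, -2.92 and -3.25 in SPORTS. The lines were far apart, with more spread among SPORTS rats. Tph2 rose 2.78-fold (difference 1.48 ± 0.23 SE, limma adjusted p = 0.0089). Blocking on the row ended the call of Tph2 (adjusted p = 0.0593), as did row 2 taken alone (adjusted p = 0.0993), and with normexp the difference was 0.87. Nos3, the endothelial nitric oxide synthase, rose by 0.24 ± 0.06 (adjusted p = 0.0326). That call ended without any 1 array except wild type replicate 1 (adjusted p from 0.0618 to 0.0967), and Nos3 was called in 7 of 16 alternatives. Nos1, the neuronal nitric oxide synthase, did not pass at a difference of 0.37 ± 0.11 (adjusted p = 0.0702), read by a probe of 1 spot. That probe was called without wild type replicate 1 (adjusted p = 0.0341) and with quantile normalisation (adjusted p = 0.0244). The other Nos1 probe, of 10 spots, was at 0.25 ± 0.09 (adjusted p = 0.11), and the lines overlapped.

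Th, whose enzyme commits tyrosine to dopamine and noradrenaline, read 0.37, 1.25 and 1.29 in wild type and 1.28, 1.54 and 1.76 in SPORTS. The lines overlapped, and wild type replicate 1 lay well below the other 5 arrays. Th differed by 0.56 ± 0.28 (SE; limma adjusted p = 0.217) and by 0.25 without wild type replicate 1 (adjusted p = 0.307). Nos2, the inducible nitric oxide synthase, and Agmo, which cleaves ether lipids, had differences of 0.31 ± 0.13 and -0.41 ± 0.17, neither of which passed (adjusted p = 0.15 and 0.159). Nos2 was called without wild type replicate 2 (0.44, adjusted p = 0.031) and was 0.15 with normexp. The Agmo difference was -0.24 without wild type replicate 1, -0.14 with the row block and -0.15 with normexp. The peripheral tryptophan hydroxylase gene Tph1 was too dim to be tested. Of the Tph1 probes, A_44_P306204 was well above background on 0 wild type and 2 SPORTS arrays.

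Carbonyl and aldose reductases can stand in for sepiapterin reductase. Of 4 listed genes 3 were tested, of which 0 rose, 2 fell and 1 did not pass, with a median of -0.22. At an unadjusted p under 0.05 the same 2 were lower and 0 higher, beside 18.7% of all genes lower. The carbonyl reductase gene Cbr3 read -2.44, -2.16 and -2.17 in wild type and -3.04, -3.20 and -3.14 in SPORTS, with no overlap. It fell by 0.87 ± 0.09 (SE), a level 1.83-fold higher in wild type (limma adjusted p = 0.00263), and the call was kept in all 16 alternatives. Its relative Cbr1 fell by 0.22 ± 0.06 (adjusted p = 0.0421), a call that ended without any 1 of the 6 arrays (adjusted p from 0.0634 to 0.108) and held in 6 of 16 alternatives. Akr1b1, the aldose reductase gene, was at -0.19 ± 0.09, or -0.11 without SPORTS replicate 1, and was not called (adjusted p = 0.199).

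Pcbd1, which encodes the dehydratase that acts before Qdpr in recycling, differed by 0.12 ± 0.12 (SE; limma adjusted p = 0.543), and its other probe by 0.06 ± 0.10. Without wild type replicate 1 or SPORTS replicate 3 the Pcbd1 difference was 0.02 or 0.03. Of 7 genes that supply GTP, the starting material, 0 rose, 1 fell and 6 did not pass, with a median of -0.02. At an unadjusted p under 0.05, 1 of the 7 was higher and 3 lower, beside 20.6% and 18.7% of all genes. The gene that fell was the guanylate kinase gene Guk1, by 0.15 ± 0.04 (adjusted p = 0.0409). That call ended without any 1 of the 6 arrays (adjusted p from 0.0507 to 0.125), and it held in 5 of 16 alternatives.

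**Figure D3:**
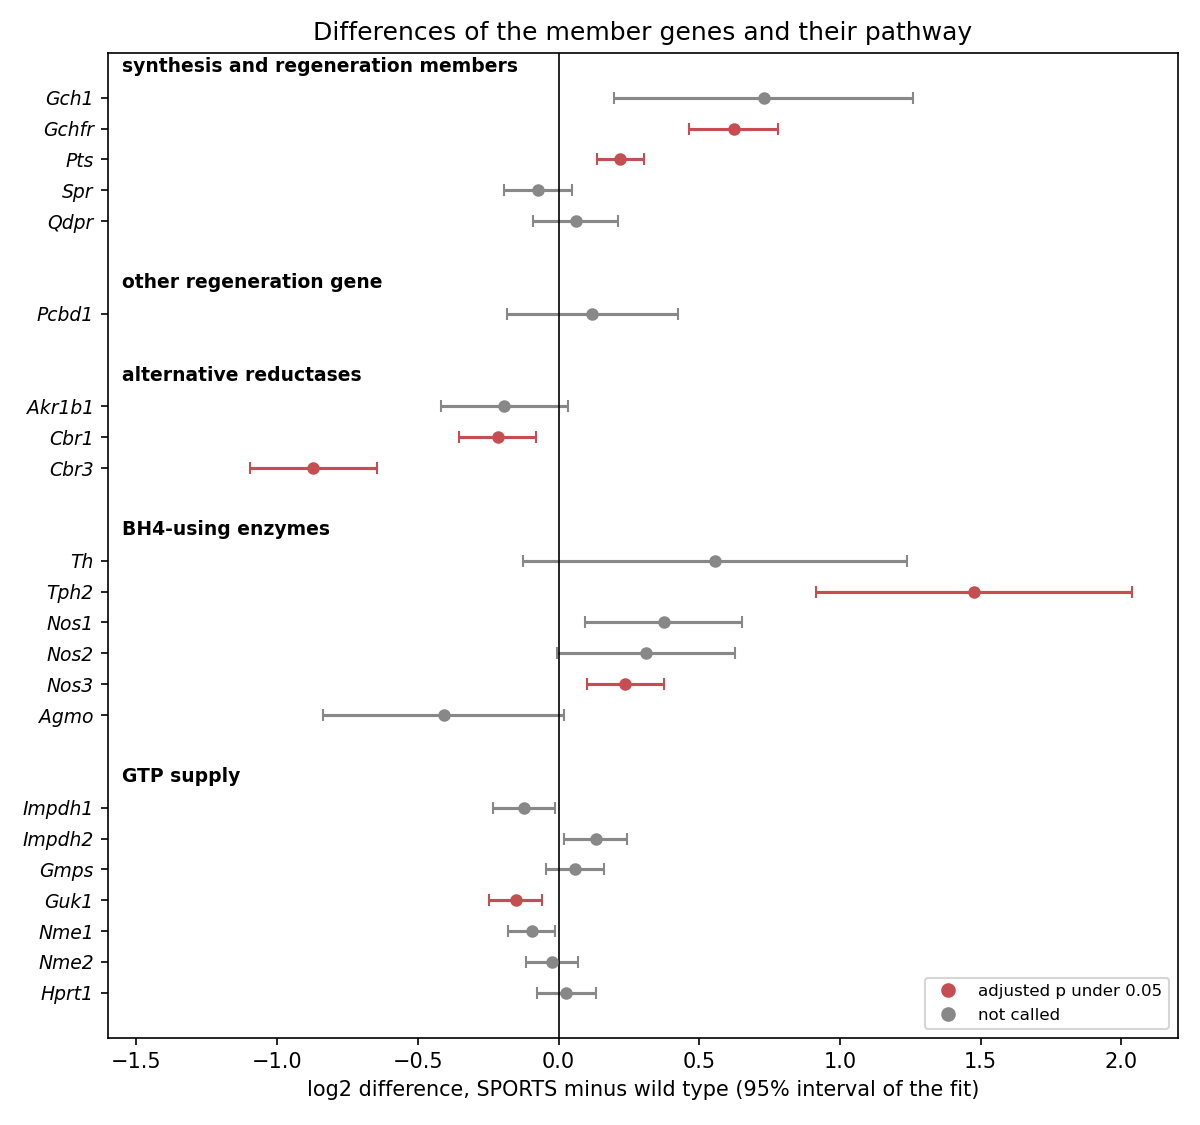
Log2 difference, SPORTS minus wild type (horizontal axis), with its 95% interval from the fit, for the brightest tested probe of the 5 genes, the other recycling gene, the alternative reductases, the enzymes that use the cofactor (BH4) and the GTP supply genes. Red marks an adjusted p under 0.05. Among the genes drawn, Tph2 has the largest rise, Cbr3 the largest fall, and the intervals of Gch1, Th and Tph2 are the widest.

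Markers of monoamine neurons were measured beside the members, since these neurons are known for high Gch1. Of 9 listed markers 8 were tested, of which 2, Ddc and Tph2, rose, 0 fell and 6 did not pass. Among all tested genes 12.9% rose and 11.4% fell. The transporter genes Slc6a4 and Slc6a3 entered the test only through SPORTS, at 0 and 2 wild type arrays above background, and the noradrenaline synthesis gene Dbh only through wild type, at 2 SPORTS arrays. The other 5 (Th, Ddc, Slc18a2, Slc6a2 and Tph2), above background on all 6 arrays, had a median difference of 1.05, or 0.89 without SPORTS replicate 1. Without wild type replicate 1 their differences were 0.25 for Th, 0.76 for Ddc, 0.49 for Slc18a2, 1.22 for Slc6a2 and 1.48 for Tph2. SPORTS replicate 1 set the sign of Dbh, which read -1.55 there, between -5.50 and -5.08 in wild type, and -6.25 and -5.87 in the other SPORTS arrays. Dbh differed by 0.73 (limma adjusted p = 0.73), and without SPORTS replicate 1 it was called lower, at -0.78 (adjusted p = 0.0487). The noradrenaline transporter gene Slc6a2 went from 1.13 (adjusted p = 0.235) to 0.45 without the same array. The dopamine transporter gene Slc6a3 differed by 1.40 (adjusted p = 0.203), and without wild type replicate 1 by 0.60 (adjusted p = 0.0443). The adjusted p values of Dbh and Slc6a3 are not independent of their entry through wild type and through SPORTS. When the row was a block, 0 of the 8 were called, beside 8.34% of all tested genes. The summed signal of the 8 markers, in units of the array's 75th percentile, was 2.25, 4.0 and 4.09 in wild type replicates 1 to 3. It was 5.34, 5.66 and 6.33 in SPORTS replicates 1 to 3. The sum includes Slc6a4, Slc6a3 and Dbh, which entered through 1 line only, and is weighted to the brightest markers, Th and Ddc. These sums and the Gch1 level put the 6 arrays in the same order, from wild type replicate 1 to SPORTS replicate 3, which was looked at after the values were seen. Within it, wild type replicates 2 and 3 read -4.95 and -4.92 for Gch1, and SPORTS replicates 1 and 2 read -4.61 and -4.51. Both pairs lay closer together than the median gap of 0.30 between the spots of that probe. The order within each pair is therefore not resolved. By the measured levels, Gchfr kept the order of the sums among wild type arrays but not among SPORTS arrays, and Pts kept it in neither line. Neighbouring Gchfr levels within each line lay closer together than that probe's median spot gap of 0.16. So did those of Pts (median gap 0.04), except that wild type replicate 1 lay further above replicates 2 and 3. Apart from that, the order of neighbouring arrays is not resolved for Gchfr and Pts either. Ddc, the decarboxylase that follows both hydroxylases, differed by 0.97 ± 0.29 at its fainter probe, which did not pass (limma adjusted p = 0.0638). At its brighter probe Ddc rose by 1.05 ± 0.25 (SE; adjusted p = 0.0345). Its call ended without wild type replicate 2 or any 1 SPORTS array (adjusted p from 0.057 to 0.106) and under the row block (adjusted p = 0.256), and it held in 8 of 16 alternatives. The serotonin transporter gene Slc6a4 exceeded background on 0 wild type and 3 SPORTS arrays. With wild type signals raised to at least the lowest signal well above background, its SPORTS mean was 3.1-fold the wild type mean. The log2 difference of Slc6a4 was 2.29 as reported, 0.77 with normexp and 1.56 with the row as a block. The 2 spots of its probe differed by a median of 0.79 on the log2 scale and by up to 4.65. The limma adjusted p of the reported difference was 0.0577 and is not independent of the gene's entry through SPORTS. The 3.1-fold value sets the SPORTS mean against the higher of 2 signals on each wild type array. These are the gene's own signal and the lowest signal well above background. The serotonin neuron factor Fev was not well above background on any array. The part of these neurons in the differences of Gch1, Gchfr, Pts and Tph2 was not tested.

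**Figure D4:**
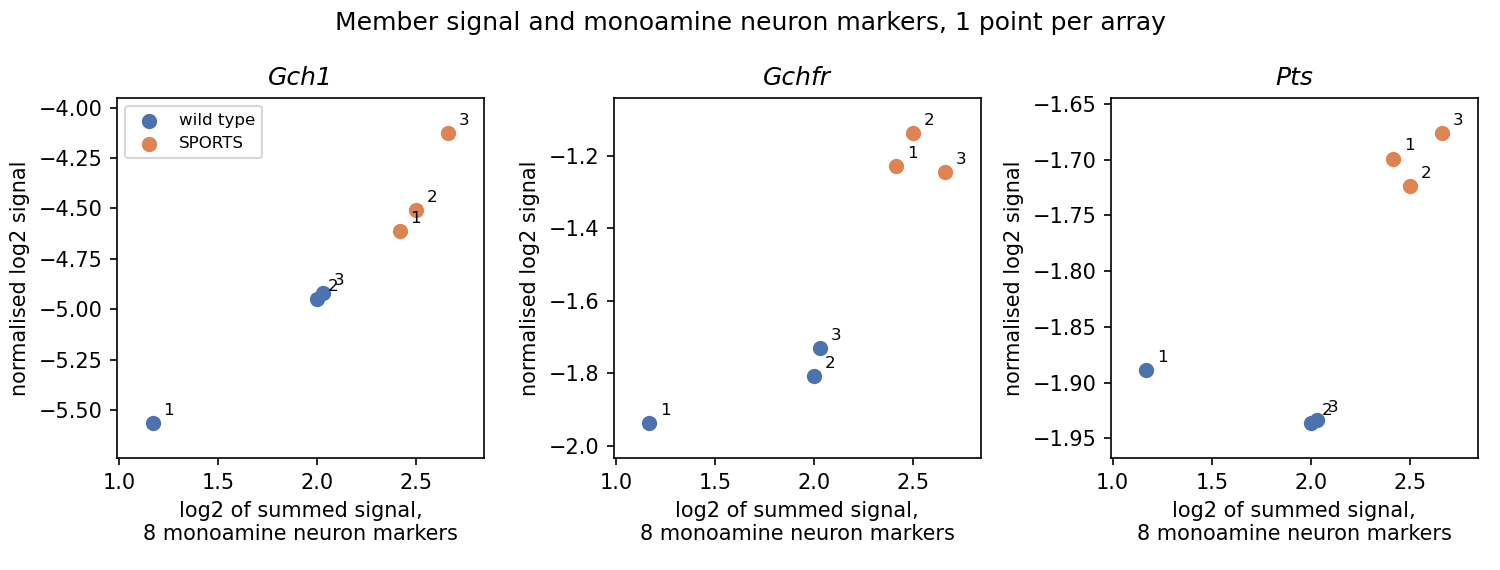
Normalised log2 signal of Gch1, Gchfr and Pts (vertical axes) against the log2 of the summed signal of 8 monoamine neuron markers (horizontal axes), 1 point per array, wild type in blue and SPORTS in orange, numbered by replicate. Gch1 and the marker sum, which is weighted to Th and Ddc, rank the 6 arrays alike. For Gch1, wild type replicates 2 and 3, and SPORTS replicates 1 and 2, lie too close to resolve. By the measured levels, Gchfr departs from the order of the sum among SPORTS arrays and Pts in both lines. Neighbouring Gchfr levels within a line, and those of Pts apart from wild type replicate 1, also lie too close to resolve.

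Other marker lists were measured on the same arrays. Among all tested genes 12.9% were called higher and 11.4% lower. A sum is weighted to the brightest genes of its list. For oligodendrocytes that was Mbp, at 0.07 (limma adjusted p = 0.624), though a fainter Mbp probe was called higher at 0.23 (adjusted p = 0.00921). For astrocytes it was Aldoc, at 0.09 (adjusted p = 0.314). The summed signal of 7 oligodendrocyte markers ran from 184 to 212 in wild type rats and from 199 to 214 in SPORTS, with 2 of 7 called higher, among them Mog. That of 5 astrocyte markers was 149 to 167 and 168 to 175, with 1 called higher (Aqp4) and 2 of 5 below 0. Other probes of the glutamate transporter genes Slc1a2 and Slc1a3 were called lower (limma adjusted p = 0.0279 and 0.0265). That of 5 endothelial markers was 6.1 to 6.37 and 6.68 to 7.33, with 1 called higher (Pecam1), while Flt1 was at -0.54 and did not pass. That of 5 microglial markers was 9.38 to 10.3 and 8.94 to 10, with 0 called at the adjusted threshold and 1 at an unadjusted p under 0.05. The sum of 4 neuron markers was 35.4 to 36.3 in wild type rats, above the 32.8 to 33.6 of SPORTS, with 2 called lower (Syt1 and Tubb3). The sum of 3 erythroid markers spanned 96.6 to 120 in wild type rats and 79.3 to 138 in SPORTS, with 0 called. With slide row as a blocking term none of the oligodendrocyte, astrocyte, endothelial and neuron calls of the brightest probes held, and Flt1 was called lower. That Flt1 call rests on wild type replicate 3, the 1 wild type array in row 2. Flt1 read -2.30 there, -3.53 and -3.81 in wild type replicates 1 and 2, and -3.84 to -3.67 in SPORTS. The 2 spots of its probe differed by up to 2.97 on the log2 scale. SPORTS replicate 1 stood apart on 4 cerebellum markers, at 3.37 against 1.02 to 1.34 on the other 5 arrays. Without that array the differences were 0.64 for Gchfr, 0.22 for Pts and 0.83 for Gch1, close to those over all arrays. The part of the other lists in the member differences was not tested.

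By Pearson correlation over the 6 arrays, the genes most like each member were Bet1 and Armcx1 for Gch1, Hp and Zfp418 for Gchfr, Ehd3 and Dguok for Pts, Krt18 and Adra1b for Spr, and Ldhb and Impact for Qdpr. The correlations were between 0.989 and 0.999. Such values are common with 6 arrays that fall into separate lines: of 11022 genes compared, 610 reached 0.95 with Gchfr, 515 with Pts and 115 with Gch1. For Spr and Qdpr, which did not separate the lines in the test, 41 and 34 genes reached 0.95. These likenesses are descriptions that share the arrays and their scaling.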

How the data were processed

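The authors scanned 1-colour Agilent arrays and, per the file headers, extracted intensities with Feature Extraction 10.10.1.1, with background subtraction and spatial detrending inside each array. The deposited series table equals these intensities times a factor per array (1.38 to 1.47) and has 0 columns of other samples. Deposited spot flags are 0 or 1.

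Of 58717 non-control spots, outlier-flagged values (3075) were left out, spots of a probe were averaged as log2, and the 75th percentile of each array's processed signal was subtracted. Probes with more than 0.5 of spots well above background on all arrays of a line were tested (20659). Symbols came from matching transcript accessions to RefSeq (18005 of 30367 probes), and promoters from the RefSeq table of build GRCr8. The array design names another build, so no probe position is given. A gene is represented by its brightest tested probe.

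The lines were compared in R 4.3.3 by the moderated test of limma 3.58.1 (two-sided, Benjamini-Hochberg over all tested probes, threshold 0.05), a procedure tested on simulated data. Errors of differences are SE and intervals are 95%. The members, the gene lists and the alternatives, slide row included, were chosen with earlier results of these data known. Named were all members, every called gene of the lists around them, Th, Tph2, Nos1, Nos3 and Pcbd1, and the 2 genes most correlated with each member. Others (Akr1b1, Agmo, Nos2, Tph1, Dbh, the transporters, Fev and the markers) were added after their values were seen. The 16 alternatives changed normalisation, background, filters, outlier spots, variance model and slide row, or left out 1 array. Some genes of the rule and lists are not reported here.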

Additional observations from a re-analysis of the deposited data

How the results depend on the processing

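With 3 arrays a line precision is low throughout, and the Gch1 signal lies close to background. Over the 16 alternatives, the call of Gchfr held in all, that of Pts in 14, and the Gch1 difference stayed positive in all. Leaving out each array gave 2 member probes called higher and 0 lower every time. With the slide row as a block, and within row 2, 1 member probe was called higher. In both settings 1 wild type array carries the comparison.

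Over all tested genes, 445 were called higher and 475 lower with the block, 352 and 337 within row 2, and 752 and 655 without the filter on dim probes. Leaving out 1 array gave 839 to 1075 higher and 678 to 927 lower. A median shift in place of the 75th percentile called 1213 higher and 1599 lower, so that 43.1% of calls were higher against 53.1% as reported.

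Among all 11033 tested genes as reported, 1423 (12.9%) were called higher and 1257 (11.4%) lower. Of the 23 tested genes in the lists around the members, 3 were called higher and 3 lower. The number higher was 1 without the filter on dim probes and with the block, 0 within row 2, and 1 to 5 when 1 array was left out. The number lower was 1 with quantile normalisation, without the filter, with the block and within row 2, 5 with the trended variance model, and 1 to 2 when 1 array was left out. The cause was not tested.

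The fainter Spr probe, at 0.00, turned sign with quantile normalisation (-0.031), with the median shift (-0.031) and when 1 array was left out (from -0.058 to 0.085). The change of Gchfr relative to Gch1, -0.11 as reported, was 0.15 with normexp, 0.025 within row 2 and -0.195 to 0.060 when 1 array was left out. The Spr probe passed in no setting. No paired analysis was possible because the labels give the rats of the lines no shared replicate numbers beyond a single animal number.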
